A study of Mus musculus with 18 samples.

Results

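The genes described here are those whose transcripts stood higher in mouse embryonic stem cells after activation of a Raf kinase, in each of 2 cell lines, and stood at nearly the same level after a Mek inhibitor was added. Each gene was read from its brightest array probe among 13701 genes that were well above background on all 6 arrays titled 8h, as log2 of the processed signal minus the 75th percentile of its array. A gene was taken if its group mean was at least 1.5 higher at 8h than at 0h in both lines and its 8h2h mean lay within 0.5 of its 8h mean in both lines, with the KO 8h2h mean taken from replicates a and c. Of the 13701 genes, 421 met the first limit and 197 both, and 5 of these (Etv4, Krt5, Krt76, Krtdap and S100a4) were left out by their symbols, which left 192. The genes were thus chosen by these levels at 0h, 8h and 8h2h, so the changes over time below are descriptions without a test. The difference between the lines at a given title was not used in the choice and was tested.

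All cells were 129SV embryonic stem cells with a knockout of Esrrb, an orphan nuclear receptor of the pluripotency network, and all carried Raf-ErT2, a Raf kinase fused to a hormone-binding domain that 4-hydroxytamoxifen (4OHT) switches on. The arrays labelled KO had this genotype alone, and those labelled Rescue also carried an Esrrb transgene, although the series' design text speaks of WT rather than rescued cells. Cells were kept in serum with LIF and 2 uM Chir99021, a GSK3 inhibitor, and for the last 24 h before treatment in serum, LIF and 250 nM PD173074, an FGF receptor inhibitor. By their titles, the 3 groups in each line had no 4OHT (0h), 8 h of 250 nM 4OHT (8h), or 8 h of 4OHT and then 2 h of the Mek inhibitor PD03 (8h2h), with 3 arrays a group, 1 on each of 3 slides. The source names of the 12 treated arrays give 8h and 8h2h the other way round, and the titles were followed. Nothing in the labels says that the replicates were separate cultures or the lines single clones, so p-values measure only the spread between these arrays.

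Raf phosphorylates Mek, and Mek phosphorylates Erk, which acts on transcription factors of the ETS, AP-1 and SRF families. Genes such as Dusp6, Spry4 and Egr1 are known to rise within minutes to hours of Erk activity and to fall soon after it stops, since their transcripts turn over quickly. Transcript levels follow both synthesis and decay, which the arrays do not separate. In bulk cells, too, more cells of a type and more RNA per cell cannot be told apart.

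Facts of the whole series bear on the groups. The share of spots well above background was 89.1% on replicate b of the KO 8h2h group, whose negative controls also read higher. On the other 17 arrays it was lower in KO than in Rescue at each title, without overlap: 49.0% to 53.2% against 55.6% to 61.1% at 0h, 53.1% to 58.3% against 62.2% to 63.5% at 8h, and 50.6% to 54.8% against 62.1% to 65.4% at 8h2h. The rule left that array out, and the tests between the lines are given with it (18 arrays) and, where a call changes, without it (17 arrays). Esrrb itself averaged 5.61 ± 0.27, 4.35 ± 0.31 and 4.38 ± 0.67 at 0h, 8h and 8h2h on the arrays labelled KO, against 4.98 ± 0.40, 2.50 ± 0.21 and 2.21 ± 0.13 on those labelled Rescue (SD, n = 3). It was thus not lower on the arrays labelled KO, and at 8h and 8h2h it was higher there by 1.85 ± 0.29 and 2.17 ± 0.29 (SE, limma, adjusted p = 0.000398 and 0.000115). The sources used here do not say where in the transcript the deletion and the probe lie, so this probe does not check the labels, and KO and Rescue below mean the arrays so labelled.

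Promoter windows of 4 of the genes are shown because each window holds TGANTCA, a loose form of the AP-1 site, and its gene is described below. They are Prok2, a secreted prokineticin, Rgs17, a brake on G protein signalling, Slco1a5, an organic anion transporter, and Sbsn, a protein secreted by epidermis. Prok2 and Sbsn were chosen after their values were seen. The windows hold the 250 bases before the RefSeq start, 5′ to 3′, and capitals mark a match to TGANTCA. Slco1a5 has another RefSeq start, whose window at chr6:142322982-142323231 holds no match and is not shown. In GRCm38.p6 they lie at chr6:99726393-99726642 (Prok2, minus strand), chr10:5922401-5922650 (Rgs17, minus strand), chr6:142278875-142279124 (Slco1a5, minus strand) and chr7:30751221-30751470 (Sbsn, plus strand).
Prok2: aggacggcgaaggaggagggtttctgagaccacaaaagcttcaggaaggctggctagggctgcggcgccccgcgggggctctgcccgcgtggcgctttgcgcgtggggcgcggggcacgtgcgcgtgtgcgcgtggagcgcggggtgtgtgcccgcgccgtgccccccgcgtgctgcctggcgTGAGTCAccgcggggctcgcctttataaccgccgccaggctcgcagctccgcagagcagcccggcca
Rgs17: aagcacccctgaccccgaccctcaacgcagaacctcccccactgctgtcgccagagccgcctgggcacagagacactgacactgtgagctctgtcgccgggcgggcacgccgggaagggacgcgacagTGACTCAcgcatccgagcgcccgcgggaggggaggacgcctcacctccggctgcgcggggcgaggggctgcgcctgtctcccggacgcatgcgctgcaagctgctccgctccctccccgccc
Slco1a5: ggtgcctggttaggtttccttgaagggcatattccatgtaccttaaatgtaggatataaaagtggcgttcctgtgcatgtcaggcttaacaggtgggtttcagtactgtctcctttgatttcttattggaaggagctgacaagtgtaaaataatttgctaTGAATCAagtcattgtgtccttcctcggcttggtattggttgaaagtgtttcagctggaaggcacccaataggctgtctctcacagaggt
Sbsn: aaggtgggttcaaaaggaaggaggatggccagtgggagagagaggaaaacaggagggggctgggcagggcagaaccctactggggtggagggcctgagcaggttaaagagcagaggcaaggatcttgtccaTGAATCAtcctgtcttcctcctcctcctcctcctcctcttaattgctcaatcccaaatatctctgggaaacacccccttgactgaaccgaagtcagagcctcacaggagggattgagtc
The match begins 67, 122, 90 and 119 bases before the start, in that order. RefSeq promoter windows were at hand for 138 of the 192 genes, 174 windows in all, since some genes have several starts whose windows can overlap. TGANTCA, a loose form of the AP-1 site that allows any central base and reads the same on both strands, was in 15 of the 174 (8.62%). It was in 4 of 62 windows of the induced genes that were at least 1 lower at 8h2h in both lines (6.45%), and in 4.96% of 15988 windows of all genes tested. Of 82 such induced genes, 10 were left out by symbol, as in the rule. Among these were Fos, Dusp6 and Spry4, which are not in the 62 windows. Slco1a5, Sbsn and Gm38509 matched only as TGAATCA or TGATTCA, and the other kept genes as TGAGTCA or TGACTCA. A CArG box, the motif of SRF, was in 1 of the 174 (0.575%), that of H2al1m, against 7 of the 62 (11.3%) and 1.36% of all. TGTGGTT, the letters of a RUNX site, was in 6.9%, 1.61% and 3.3% of the windows in the same order. GGAATG, of a TEAD site, was in 15.5%, 9.68% and 11.1%, and CACGTG, an E-box, in 3.45%, 12.9% and 7.86%. CCGGAAGT, of an ETS site, was in 3.45%, 1.61% and 4.92%, and TGACGTCA, a CRE, in 2.3%, 3.23% and 2.4%. Every motif was searched on both strands, and a match is a description of letters, not a bound site.

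Across the 421 induced genes, 8h2h levels ran from close to 8h to far below it. Beside the 197 within 0.5 in both lines (46.8%), 154 were at least 0.5 lower at 8h2h in both, 4 at least 0.5 higher in both (Adgrd1, B3galt5, Col7a1 and Dusp18), and 66 met none of these. The 192 kept genes had a median 8h minus 0h of 2.26 in KO and 2.36 in Rescue, and a median 8h2h minus 8h of -0.06 in KO and -0.18 in Rescue. For 72 induced genes that were at least 1 lower at 8h2h, with the same symbols left out, the medians were 2.66 and 2.60 for 8h minus 0h and -1.80 and -1.63 for 8h2h minus 8h. Over all 13701 genes the median 8h minus 0h was -0.01 in KO and -0.04 in Rescue. The median 8h2h minus 8h over all genes was -0.00642 in KO and -0.00479 in Rescue, and for the kept genes the rule bounds it.

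**Figure D1:**
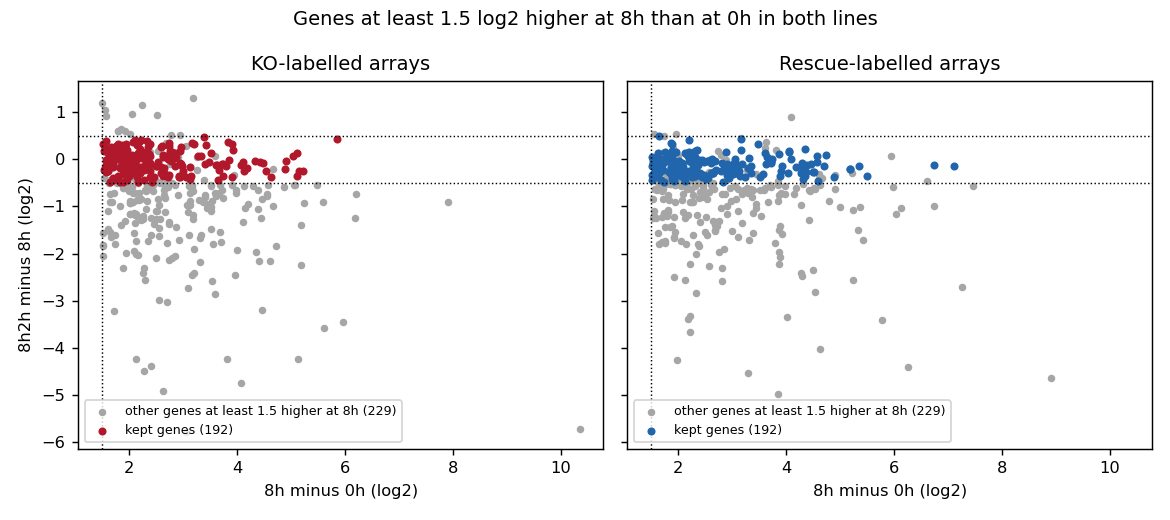
Each point is a gene at least 1.5 higher at 8h than at 0h in both lines, with 8h minus 0h across and 8h2h minus 8h up (log2, group means, KO 8h2h from arrays a and c), for KO-labelled arrays at left and Rescue-labelled arrays at right. Coloured points are the 192 kept genes, grey points the other 229, and dotted lines the limits of 1.5 and 0.5.

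At the limits, the genes ran on without a break. Nearest inside the first limit were Phldb1 (8h minus 0h of 1.83 in KO and 1.51 in Rescue), Apobr (1.83 and 1.52) and Adam8 (1.57 and 1.52), and nearest outside were Mob3b (1.58 and 1.49), Marveld3 (1.47 and 1.96) and Slc4a11 (1.46 and 1.93). For the second limit, Clcn2 (8h2h minus 8h of -0.49 in both), Arhgap31 (-0.36 in KO and -0.49 in Rescue) and Phldb1 (-0.49 and -0.44) lay just inside, and Sfn (-0.50 and -0.42), Stk40 (-0.39 and -0.50) and Dmkn (0.52 and 0.14) just outside. With a limit of 0.3 in place of 0.5, 112 genes remained of the 192.

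Single arrays held the pattern unevenly. All 3 KO arrays at 8h lay above all 3 at 0h for 189 of the 192 genes (23.3% of all genes read), and likewise for 192 of 192 in Rescue (22.3%), which the choice of the genes largely fixes. At 8h2h the counts were 184 in KO (12%) and 192 in Rescue (19.2%). The 8h2h arrays a and c of KO had 170 and 164 of the 192 genes within 0.5 of the KO 8h mean, and the 3 Rescue arrays had 173, 174 and 171 within 0.5 of the Rescue 8h mean. All of these arrays entered the rule, which largely fixes their counts, and shares over all genes were not computed for them. Replicate b of KO 8h2h, which the rule did not use, had 69, with 91 lower and 32 higher by more than 0.5. Its median difference from the KO 8h mean was -0.45 for the kept genes and -0.37 for all genes read. The median difference of replicate b from the mean of arrays a and c over all genes read was -0.39. After this shift was taken off, 97 genes lay within 0.5 of the KO 8h mean. Set against the mean of arrays a and c, with the shift left in, 73 of the 192 lay within 0.5 on replicate b. Of all genes read, 50.9% did. The part of the high background of replicate b in this spread was not tested.

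**Figure D2:**
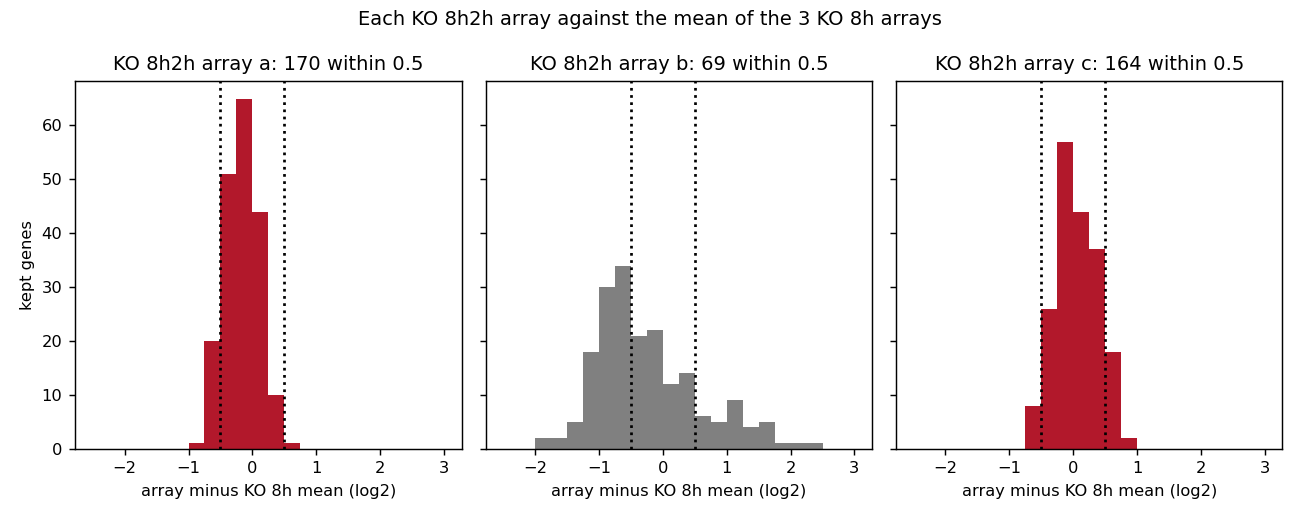
Histograms of the 192 genes for each KO 8h2h array (a, b, c): the array's level minus the mean of the 3 KO 8h arrays across (log2), the number of genes up, and dotted lines at -0.5 and 0.5. Arrays a and c have 170 and 164 genes between the lines, and array b, left out by the rule, has 69.

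Other probes of the same genes were read on the same arrays that chose the genes, so they are no independent check. Another probe was well above background on all 6 arrays titled 8h for 55 of the 192 genes, 70 probes in all. Probes that failed this were not counted, and the filter favours probes that are high at 8h. Of these 70, 49 were at least 1.5 higher at 8h in both lines and 41 also lay within 0.5 at 8h2h. Several genes started from little or no signal: at 0h, 47 of the 192 were not well above background on any KO array and 23 on any Rescue array, 19 of them on none of the 6, while 109 were well above background on all 6. For a gene not above background in a group, the change is given as a lower bound on its fold. Where only some 0h arrays were above background, a fold rests partly on readings below it and is uncertain.

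By what their products are known to do, 135 of the 192 genes were sorted after the list was seen into 9 groups, and 57 were left without one. The groups were transport and metabolism (21), receptors, adhesion and junction genes (19), genes best known from blood and immune cells (19), secreted signals and carriers (17), intracellular signalling (17), cytoskeleton, lamina and caveolae (16), transcription factors and chromatin (12), matrix proteins and extracellular proteases (8), and annexins, S100 proteins and a galectin (6). Secreted signals and carriers had the highest median 8h minus 0h in KO, 3.42 (3.09 in Rescue), and the blood and immune genes the highest in Rescue, 3.24 (2.25 in KO). These medians count 0h readings below background. Medians of the other groups lay between 1.94 and 2.64 in both lines. Along the chromosomes, 20 of the 192 stood in 9 runs of neighbouring tested genes, the longest being Ly6a, Ly6c1, Ly6c2 and 9030619P08Rik on chromosome 15.

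**Figure D3:**
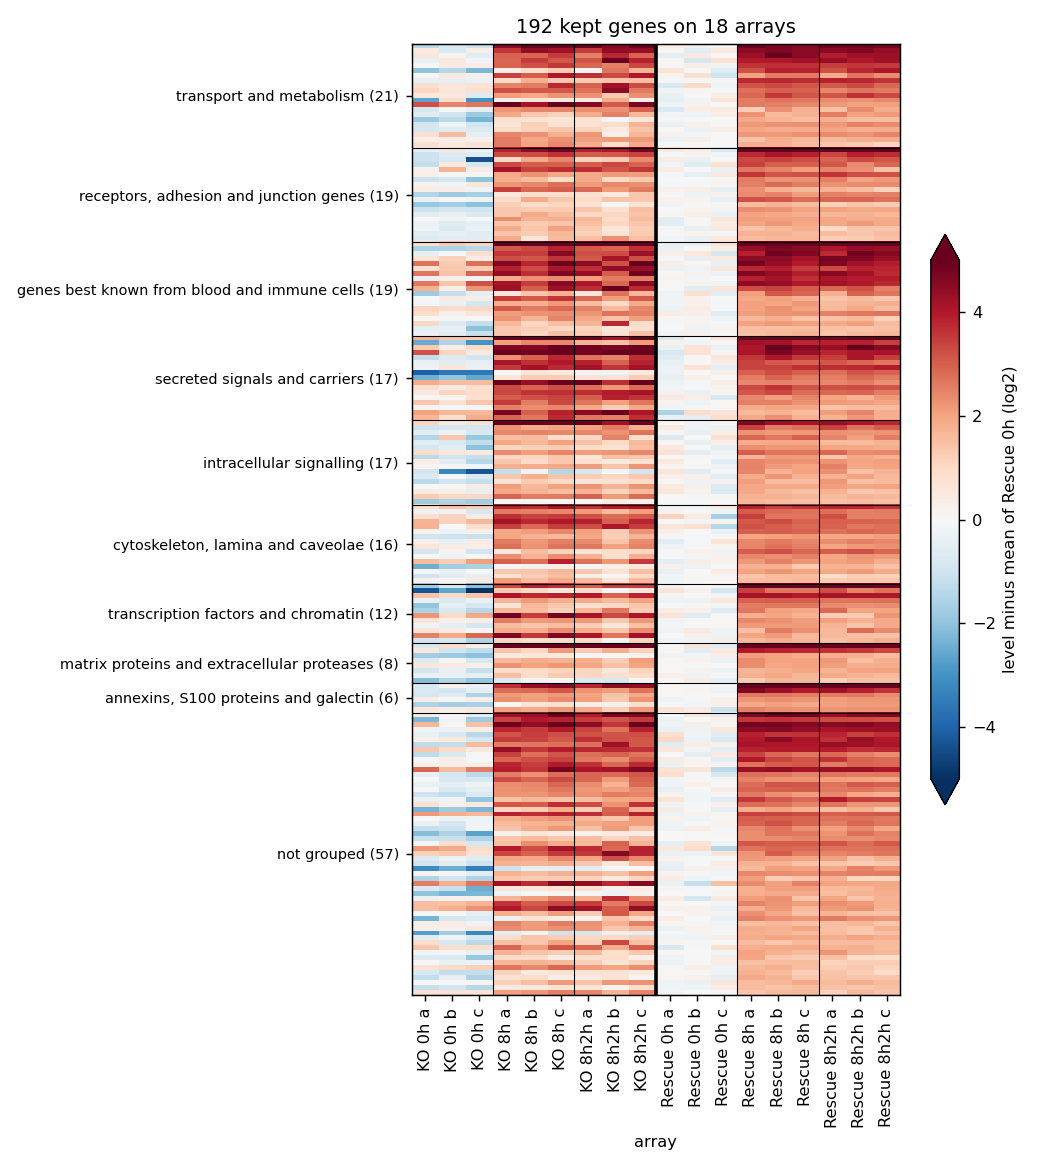
Rows are the 192 genes by functional group, columns the 18 arrays, KO at left and Rescue at right of the thick line. Colour is the level minus the gene's mean on the 3 Rescue 0h arrays (log2, colours end at -5 and 5). The 8h and 8h2h blocks of a line look alike, and KO 0h arrays range from below to above Rescue 0h.

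The secreted signals and carriers ranged from growth factor ligands to peptide hormones and plasma proteins. Vgf, a neuropeptide precursor known to respond to growth factors, read -1.41, -0.42 and -1.87 at 0h, 3.16, 3.49 and 3.52 at 8h, and 2.79, 2.61 and 3.24 at 8h2h in KO. Its Rescue levels were 1.31, 0.97 and 1.04 at 0h, 5.32, 5.26 and 4.86 at 8h, and 5.01, 5.0 and 4.54 at 8h2h. No array at 8h or 8h2h overlapped those at 0h in either line, a change of 24.6-fold in KO and 16.5-fold in Rescue, and KO lay below Rescue throughout.
Pla2g7, a secreted phospholipase that degrades platelet-activating factor, read 1.63, 1.33 and 1.26 at 0h, 4.86, 4.89 and 5.26 at 8h, and 4.77, 3.99 and 4.99 at 8h2h in KO. In Rescue it read -0.77, -0.02 and 0.61 at 0h, 4.91, 5.24 and 5.21 at 8h, and 4.73, 5.10 and 4.94 at 8h2h. Both lines reached similar levels from unlike starting points, 12.1-fold over 0h in KO and 36.3-fold in Rescue.
Igfbp6, a binding protein for insulin-like growth factors, read -3.89, -3.38 and -3.39 at 0h, 0.21, 0.84 and 0.67 at 8h, and 0.03, 0.01 and 0.64 at 8h2h in KO, where 1 of the 3 0h arrays was well above background. Rescue arrays read -0.11, 0.21 and 0.50 at 0h, 3.19, 3.48 and 3.21 at 8h, and 2.94, 3.36 and 3.13 at 8h2h. The Rescue 0h arrays stood close to the KO arrays at 8h.
Tgfb1, the founding TGF-beta ligand, read -0.39, -0.97 and -0.38 at 0h, 1.77, 0.81 and 1.55 at 8h, and 0.93, 0.30 and 0.94 at 8h2h in KO. Its levels in Rescue were -1.58, -2.00 and -1.63 at 0h, 0.78, 0.78 and 0.53 at 8h, and 0.39, 0.34 and 0.23 at 8h2h. Its 8h2h minus 8h was -0.44 in KO (arrays a and c) and -0.37 in Rescue, near the limit of the rule.
Trf, the iron carrier transferrin, read 0.42, 0.11 and 0.11 at 0h, 4.08, 2.90 and 3.92 at 8h, and 4.00, 2.25 and 3.88 at 8h2h in KO. Rescue levels were -1.69, -1.54 and -1.10 at 0h, 0.95, 1.04 and 1.01 at 8h, and 0.96, 1.11 and 0.86 at 8h2h. Here KO was the higher line at every title. Adm2, a peptide hormone of the calcitonin family, was also higher in KO, with 8h minus 0h of 2.10 in KO and 1.64 in Rescue, from 0h groups in which 1 array of 3 was well above background in each line.
Prok2, whose promoter is printed above, was not well above background on any 0h array and read -3.21, -2.93 and -2.88 at 8h in KO, at least 1.81-fold over 0h, and -3.47, -3.23 and -3.78 in Rescue, at least 2.88-fold. Sbsn, also printed above, was 10.5-fold higher at 8h in KO and 6.45-fold in Rescue. Afp, alpha-fetoprotein of yolk sac and fetal liver, was not well above background at 0h in KO and on 1 of 3 arrays in Rescue, and was at least 3.85-fold higher at 8h in KO.

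Matrix genes and proteases included a collagen read from almost no signal at 0h. Col6a5, a collagen VI chain, was not well above background on any KO 0h array and on 1 of 3 Rescue 0h arrays. Its KO levels were -0.08, -0.23 and -0.01 at 8h and -0.16, -0.08 and 0.21 at 8h2h, at least 13.5-fold over 0h. In Rescue they were 1.26, 1.39 and 1.44 at 8h and 1.26, 1.22 and 1.22 at 8h2h, and no fold is given there, since 2 of the 3 0h arrays did not read the gene above background.
Mmp9, a gelatinase that cleaves type IV collagen, read -3.54, -5.08 and -5.36 at 0h, -2.68, -3.02 and -1.95 at 8h, and -2.82, -2.27 and -2.87 at 8h2h in KO. Its Rescue levels were -4.03, -4.65 and -3.53 at 0h, -0.08, -0.20 and -0.31 at 8h, and -0.41, -0.53 and -0.73 at 8h2h. The lines overlapped at 0h and were apart at 8h and 8h2h, with Rescue higher.
Adam8, a membrane metalloprotease, and Lama3, the laminin chain of epithelial basement membranes, were changed less, by 1.57 and 2.20 in KO and 1.52 and 2.13 in Rescue.

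Among the calcium-binding proteins, S100a6, linked to cell proliferation, read 4.52, 4.76 and 3.80 at 0h, 7.51, 7.44 and 7.52 at 8h, and 7.36, 6.81 and 7.30 at 8h2h in KO. In Rescue it read 5.33, 5.48 and 5.37 at 0h, 8.03, 8.04 and 7.94 at 8h, and 7.99, 8.03 and 7.77 at 8h2h. The high-background array was the lowest of its group, and the 8h and 8h2h arrays all stood above every 0h array.
S100a10, the partner of annexin A2, was 3.97-fold higher at 8h in KO and 4.76-fold in Rescue. Anxa1, the annexin linked to glucocorticoid action, was 4.44-fold and 3.87-fold higher in the same order, and was among the genes slightly higher at 8h2h than at 8h in both lines (0.08 in KO and 0.15 in Rescue). Lgals7, a galectin of stratified epithelia, was not well above background at 0h in KO, where it was at least 19.8-fold higher at 8h, against 40.8-fold in Rescue.

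The receptor, adhesion and junction genes included several of epithelia. Itga3, the laminin-binding integrin alpha 3, read 0.30, 0.52 and 0.17 at 0h, 3.41, 3.07 and 3.28 at 8h, and 2.95, 2.24 and 2.86 at 8h2h in KO. Rescue arrays read 2.03, 2.27 and 2.34 at 0h, 3.80, 3.92 and 3.74 at 8h, and 3.41, 3.58 and 3.42 at 8h2h. The change at 8h was 7.57-fold in KO and 3.05-fold in Rescue, and KO stood lower at 0h.
Cldn3, a tight junction claudin, Pkp3 and Ppl, which belong to desmosomes and the cornified envelope, were 3.56-fold to 5.22-fold higher at 8h in KO and 4.07-fold to 4.98-fold in Rescue. Tspan8, a tetraspanin, was not well above background at 0h in either line and was at least 5.75-fold higher at 8h in KO and at least 27.7-fold in Rescue. Lmna, which encodes lamin A and C of the nuclear lamina, was 2.98-fold and 4.2-fold higher.

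Genes best known from blood and immune cells included Ptprc, which encodes the leukocyte phosphatase CD45. Its KO arrays read -6.19, -5.67 and -5.88 at 0h, -1.30, -0.51 and -0.30 at 8h, and -1.43, -1.21 and -0.49 at 8h2h. In Rescue they read -7.31, -7.29 and -6.29 at 0h, -0.24, 0.42 and 0.27 at 8h, and -0.31, 0.27 and 0.05 at 8h2h. No 0h array was well above background, and the changes were at least 8.92-fold in KO and at least 36-fold in Rescue.
Ubash3b, a phosphatase that dampens receptor signalling in T cells and platelets, read -3.35, -3.34 and -3.16 at 0h, 1.28, 1.53 and 2.06 at 8h, and 1.30, 1.13 and 1.87 at 8h2h in KO. Its Rescue levels were -2.13, -1.75 and -1.46 at 0h, 2.61, 2.87 and 2.73 at 8h, and 2.28, 2.60 and 2.55 at 8h2h. Ly6a, which encodes the stem cell antigen Sca-1, read 1.19, -0.04 and 1.74 at 0h, 2.73, 2.06 and 3.10 at 8h, and 2.65, 1.44 and 3.05 at 8h2h in KO.
The Rescue levels of Ly6a were -1.36, -1.28 and -1.69 at 0h, 3.01, 2.92 and 2.58 at 8h, and 2.76, 2.58 and 2.31 at 8h2h, so the lines differed at 0h and overlapped at 8h and 8h2h. Ly6c1 and Ly6c2, its neighbours, had the same shape, with 8h minus 0h of 2.18 and 1.93 in KO and 4.38 and 4.30 in Rescue. Ly6c1 and Ly6c2 are near-identical copies and Ly6a a close relative, so their probes may read each other's transcripts, and the 3 genes are not independent. Thy1, a surface glycoprotein of T cells, neurons and fibroblasts, was 8.7-fold higher at 8h in KO and 3.81-fold in Rescue.

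Signalling genes were led by Nos3, the endothelial nitric oxide synthase. It read -0.18, -0.78 and -0.48 at 0h, 4.93, 3.86 and 4.88 at 8h, and 4.62, 2.95 and 4.62 at 8h2h in KO. In Rescue it read -1.27, -1.42 and -1.07 at 0h, 3.42, 3.08 and 2.88 at 8h, and 3.14, 2.88 and 2.56 at 8h2h. KO array b was the lowest of its group at all 3 titles, and the changes at 8h were 32.8-fold in KO and 20.8-fold in Rescue.
Rgs17, whose promoter is printed above, read -3.17, -5.49 and -6.55 at 0h, -3.45, -2.38 and -3.68 at 8h, and -3.04, -2.36 and -3.20 at 8h2h in KO, where 1 of the 3 0h arrays was well above background. Its Rescue arrays read -1.64, -2.78 and -2.32 at 0h, 0.19, -0.49 and -0.24 at 8h, and 0.05, -0.78 and -0.54 at 8h2h. The KO 0h arrays spread widely and array a of them lay above KO 8h arrays a and c, so in KO the groups overlapped. Rin1, a Ras effector that acts on Rab5, was 4.81-fold higher at 8h in KO and 3.96-fold in Rescue.

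Transcription factors included Rxrg, a retinoid X receptor. Its KO arrays read -4.49, -3.52 and -4.86 at 0h, 0.52, 1.06 and 0.90 at 8h, and 0.23, 0.63 and 0.70 at 8h2h, with none of the 0h arrays well above background. The Rescue arrays read -2.93, -2.74 and -2.63 at 0h, 2.37, 2.56 and 2.33 at 8h, and 2.22, 2.36 and 2.06 at 8h2h. Changes were at least 25.7-fold in KO and 36.5-fold in Rescue.
Hand1, a basic helix-loop-helix factor of trophoblast and heart, read -5.74, -4.01 and -6.35 at 0h, -0.11, -0.45 and -0.88 at 8h, and -0.50, -1.42 and -0.88 at 8h2h in KO. Rescue levels were -0.76, -1.18 and -2.29 at 0h, 2.01, 1.25 and 1.22 at 8h, and 1.82, 1.07 and 1.31 at 8h2h. In KO no array was well above background at 0h and 3 of 3 were at 8h, at least 10.4-fold higher, against 7.47-fold in Rescue.
Pax8, a paired-box factor of thyroid and kidney, read -1.39, -1.97 and -1.0 at 0h, 0.80, -0.36 and 0.77 at 8h, and 0.21, -1.21 and 0.33 at 8h2h in KO. Its levels in Rescue were -3.88, -3.61 and -4.14 at 0h, -1.92, -1.75 and -2.27 at 8h, and -2.25, -2.37 and -2.45 at 8h2h. KO 0h arrays a and c stood above all 3 Rescue arrays at 8h. Ripply3, a repressor of T-box factors, was also higher in KO, 6.34-fold over 0h, against at least 1.67-fold in Rescue, where no 0h array was well above background. Nfatc2, a calcineurin-dependent factor, was 4.01-fold and 3.22-fold higher at 8h in KO and Rescue.

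The transport and metabolism genes covered carriers, enzymes and binding proteins. Slc35f1, a member of the solute carrier family 35, was not well above background at 0h in KO and on 1 of 3 arrays in Rescue, and was at least 14.6-fold higher at 8h in KO. Crym, a thyroid hormone binding protein, read -0.52, -0.58 and -0.43 at 0h, 0.87, 1.73 and 1.26 at 8h, and 1.16, 1.28 and 1.42 at 8h2h in KO. Its Rescue levels were -0.20, -0.15 and 0.04 at 0h, 3.64, 3.68 and 3.60 at 8h, and 3.76, 3.68 and 3.50 at 8h2h.
For Crym the lines stood close together at 0h and far apart at 8h and 8h2h, with no overlap. Manba, the lysosomal beta-mannosidase, read 2.47, 1.69 and 1.93 at 0h, 4.52, 3.42 and 4.50 at 8h, and 3.84, 2.31 and 3.99 at 8h2h in KO. Rescue arrays read -0.97, -0.53 and -0.73 at 0h, 1.87, 1.76 and 1.66 at 8h, and 1.44, 1.27 and 1.30 at 8h2h. Car2, a carbonic anhydrase, was 5.78-fold higher at 8h in KO and 3.28-fold in Rescue, and Slco1a5, printed above, at least 1.39-fold in KO and 12.5-fold in Rescue, where 2 of 3 0h arrays were above background.

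**Figure D4:**
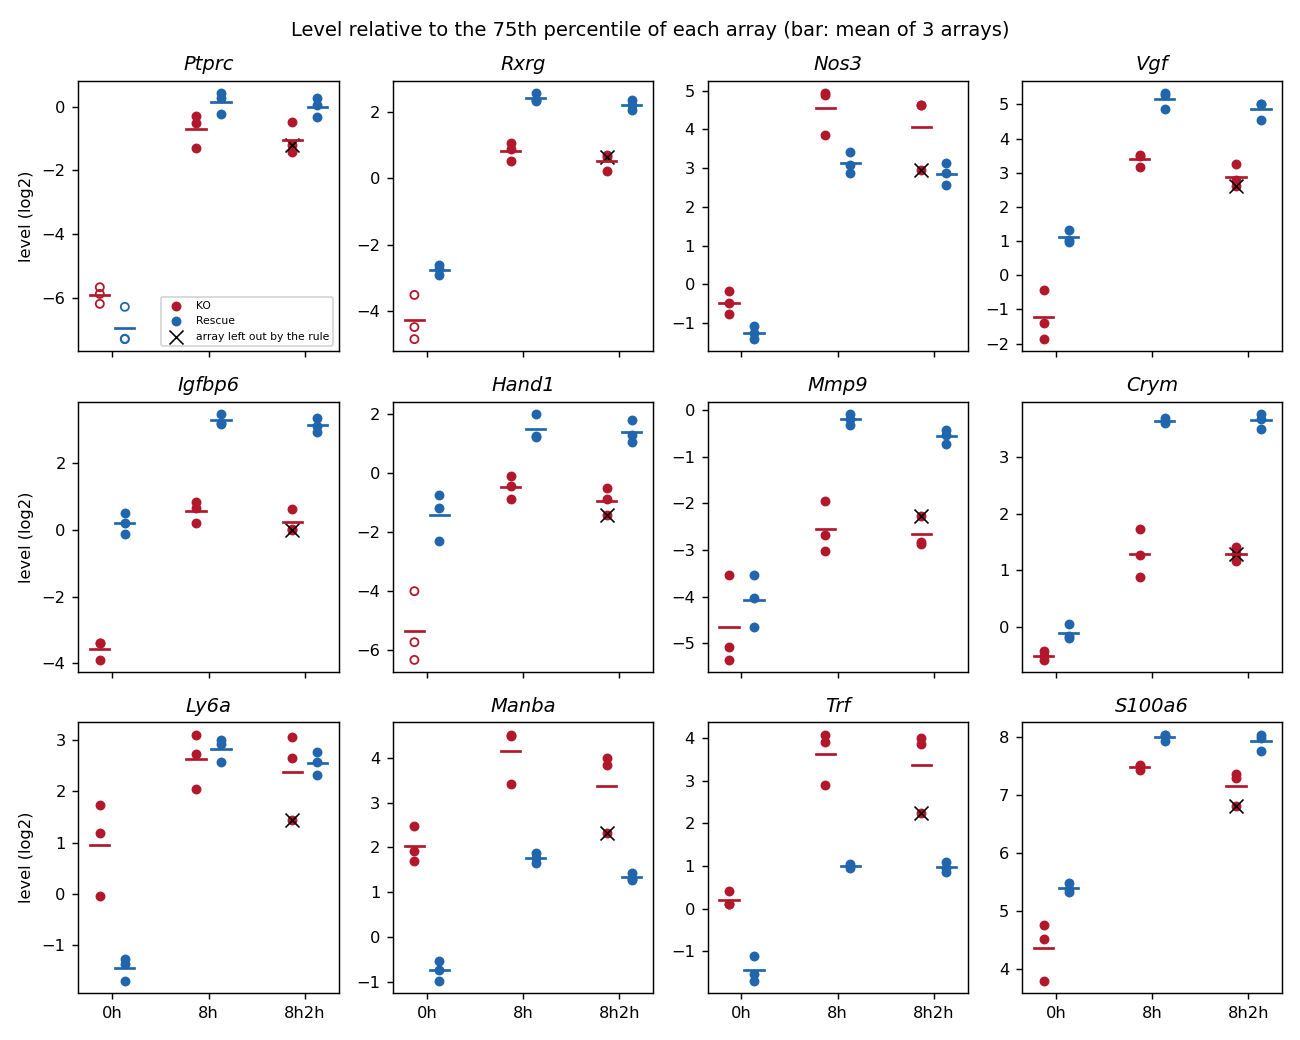
Levels of 12 of the genes (log2, relative to the 75th percentile of the array) at 0h, 8h and 8h2h, KO left of Rescue at each title, 1 point per array and a bar for the mean of 3. Open points are groups with no array well above background, and the cross marks the KO 8h2h array left out by the rule. Igfbp6, Hand1, Rxrg and Vgf are lower in KO at every title, Manba and Trf higher in KO, and Ly6a is higher in KO at 0h and overlaps between the lines at 8h.

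The remaining genes of the 12 with the largest mean log2 change, a ranking that counts 0h readings below background, were C4bp-ps1, a pseudogene (at least 5.68-fold in KO and at least 16.4-fold in Rescue, with no 0h array well above background) and Insc, an adaptor of spindle orientation (at least 13.8-fold in KO, where no 0h array was well above background, and 11.9-fold in Rescue). Bcl2l15, a Bcl-2 family gene, was 5.03-fold and 3.7-fold higher at 8h and stood a little higher again at 8h2h, by 0.40 in KO and 0.31 in Rescue. Ccdc184, a coiled-coil gene, was 3.92-fold and 3.23-fold higher.

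The lines differed in many of these genes, mostly with KO lower. At 0h, 85 of the 192 passed limma's test between KO and Rescue at an adjusted p under 0.05 (44.3%), 31 higher and 54 lower in KO, where 16.4% of the 16069 genes tested passed, 5.9% higher and 10.5% lower. At 8h, 86 passed (44.8%), 24 higher and 62 lower, against 19.3% of all genes, 7.74% higher and 11.6% lower. At 8h2h, 82 passed (42.7%), 21 higher and 61 lower, against 20%, 7.41% higher and 12.6% lower. Of the 72 induced genes that were lower at 8h2h, 31, 29 and 36 passed at the 3 titles (43.1%, 40.3% and 50%). Without replicate b of KO 8h2h the counts among the 192 were 102, 99 and 91, and among all genes 25.8%, 29% and 26.9%. The split between directions moved with the scaling: with no scaling between arrays, KO was higher in 26 and lower in 22 of 48 genes at 0h, higher in 16 and lower in 30 of 46 at 8h, and higher in 20 and lower in 21 of 41 at 8h2h. The lower share of spots above background in KO, given above, moved with the same comparison, and its part in these counts was not tested. With the percentile taken over probes above background only, a setting that was not planned, KO was higher in 33 and lower in 56 of 89 at 0h. At 8h2h it was higher in 32 and lower in 55 of 87. Of the 85 calls at 0h, 66 had signal well above background on some array of each line, 2 in KO alone, 11 in Rescue alone and 6 in neither. For some of the 66, among them Igfbp6, Rgs17 and Adm2, not every array of a line had such signal.

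Across titles, 33 of the 192 genes were lower in KO at all 3, 11 were higher at all 3, 67 passed at none, 2 passed in opposite directions at different titles (Cxcl14 and Ptprc), and 79 passed at 1 or 2 titles. On 17 arrays the lower call of Cxcl14 at 8h2h did not pass (limma, adjusted p = 0.0723), nor did that of Ptprc. Igfbp6 was lower in KO, with KO minus Rescue of -3.75 ± 0.23, -2.72 ± 0.23 and -2.92 ± 0.23 at 0h, 8h and 8h2h (SE, adjusted p = 4.48e-07, 3e-06 and 1.93e-06). The differences of Bcl2l15 were -3.01 ± 0.27, -2.57 ± 0.27 and -2.43 ± 0.27 (SE, adjusted p = 6.34e-06, 1.46e-05 and 2.51e-05), and its Rescue 0h arrays stood above all KO 8h arrays.
Hand1 was at least 5.47-fold lower in KO at 0h, where no KO array was well above background. The test there (limma, adjusted p = 0.000105) used those KO readings as they stood, not the bound. Hand1 differed by -1.97 ± 0.51 at 8h and -2.33 ± 0.51 at 8h2h (SE, adjusted p = 0.0141 and 0.0048). Rgs17 differed by -2.82 ± 0.64, -2.99 ± 0.64 and -2.45 ± 0.64 (SE, adjusted p = 0.00671, 0.004 and 0.0136), and without Rescue replicate a its difference at 8h2h, then -2.21, no longer passed. Ccdc184 differed by -2.58 ± 0.33, -2.30 ± 0.33 and -1.79 ± 0.33 (SE, adjusted p = 9.75e-05, 0.000221 and 0.00143).
With normexp background correction the differences at 0h kept their sign and call but were smaller, -2.10 for Igfbp6, -1.41 for Hand1, -0.93 for Rgs17 and -1.16 for Ccdc184, and that of Rgs17 at 8h was -1.90. With the mean of a gene's probes Bcl2l15 did not pass at 0h (-0.99), and Rgs17 differed by -1.42 at 0h and -1.58 at 8h2h.
In these 5 genes every slide had KO below Rescue at every title. Rxrg (-1.60 ± 0.26 at 8h), Vgf (-1.76 ± 0.29), Ubash3b (-1.12 ± 0.22), Adam8 (-1.78 ± 0.25) and Sbsn (-1.61 ± 0.22) belonged to the same 33. Ptprc was lower in KO at 8h2h, a difference of -1.05 ± 0.33 (adjusted p = 0.0387), which did not pass on 17 arrays (adjusted p = 0.0776), and at 0h it was called higher where neither line was above background.

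Another set differed after 4OHT. Crym was -2.35 ± 0.17 (adjusted p = 1.02e-06) at 8h and -2.36 ± 0.17 (adjusted p = 1.45e-06) at 8h2h as KO minus Rescue, and -0.40 ± 0.17 (adjusted p = 0.129) at 0h, which did not pass. Mmp9 differed by -2.35 ± 0.41 (adjusted p = 0.000863) at 8h and -2.09 ± 0.41 (adjusted p = 0.00196) at 8h2h, and by -0.58 ± 0.41 (adjusted p = 0.391) at 0h. Slco1a5, also lower in KO at 0h, where no KO array was well above background, differed by -2.78 ± 0.52 at 8h and -2.19 ± 0.52 at 8h2h (SE, adjusted p = 0.00153 and 0.00777). Col6a5 and Lgals7 were lower in KO at 8h (-1.47 ± 0.33 and -1.14 ± 0.25) and at 8h2h (-1.25 ± 0.33 and -0.95 ± 0.25). Thy1 and Nos3 were higher in KO at 8h, by 1.45 ± 0.22 and 1.43 ± 0.39. At 0h Nos3 was also higher in KO, by 0.77 ± 0.39 (SE, limma, adjusted p = 0.215), which passed only on 17 arrays (adjusted p = 0.0435). With normexp correction the differences at 8h were -1.52 for Mmp9 and -1.70 for Slco1a5, and both passed. Whether a difference between the lines itself changed between titles was not tested.

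A further set was higher in KO. Manba was higher by 2.78 ± 0.38, 2.39 ± 0.38 and 2.05 ± 0.38 at 0h, 8h and 8h2h (SE, adjusted p = 0.000157, 0.000443 and 0.0014). Pax8 was higher by 2.43 ± 0.39, 2.38 ± 0.39 and 2.13 ± 0.39 (SE, adjusted p = 0.000546, 0.00053 and 0.00125). Trf was higher by 1.66 ± 0.38, 2.64 ± 0.38 and 2.40 ± 0.38 (SE, adjusted p = 0.00758, 0.000222 and 0.000444).
These 3 genes had KO above Rescue on all slides. Adm2 was higher at 8h by 2.23 ± 0.55 and at 8h2h by 2.55 ± 0.55 (SE, adjusted p = 0.0109 and 0.00451), although its difference at 8h, 1.79 without KO replicate a, no longer passed then. Ripply3 was higher by 2.55 ± 0.42 and 2.24 ± 0.42 (SE, adjusted p = 0.000665 and 0.00172). With normexp correction Pax8 differed by 1.09 at 0h, Adm2 by 1.02 and 1.45 and Ripply3 by 1.11 and 0.85 at 8h and 8h2h, and all passed. After quantile normalization Ripply3 passed at neither title (2.41 and 0.89) and Pax8 did not pass at 8h2h (1.5).
The neighbours Ly6a, Ly6c1 and Ly6c2 were higher in KO at 0h, by 2.41 ± 0.43, 2.26 ± 0.48 and 2.33 ± 0.45 (adjusted p = 0.00143, 0.00431 and 0.00239). At 8h their differences were -0.21, 0.06 and -0.04, and none passed. With the mean of its probes Ly6c1 differed by 1.46 at 0h. Pla2g7 followed the same course, 1.46 ± 0.30 (adjusted p = 0.0036) at 0h and -0.12 ± 0.30 (adjusted p = 0.854) at 8h.

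**Figure D5:**
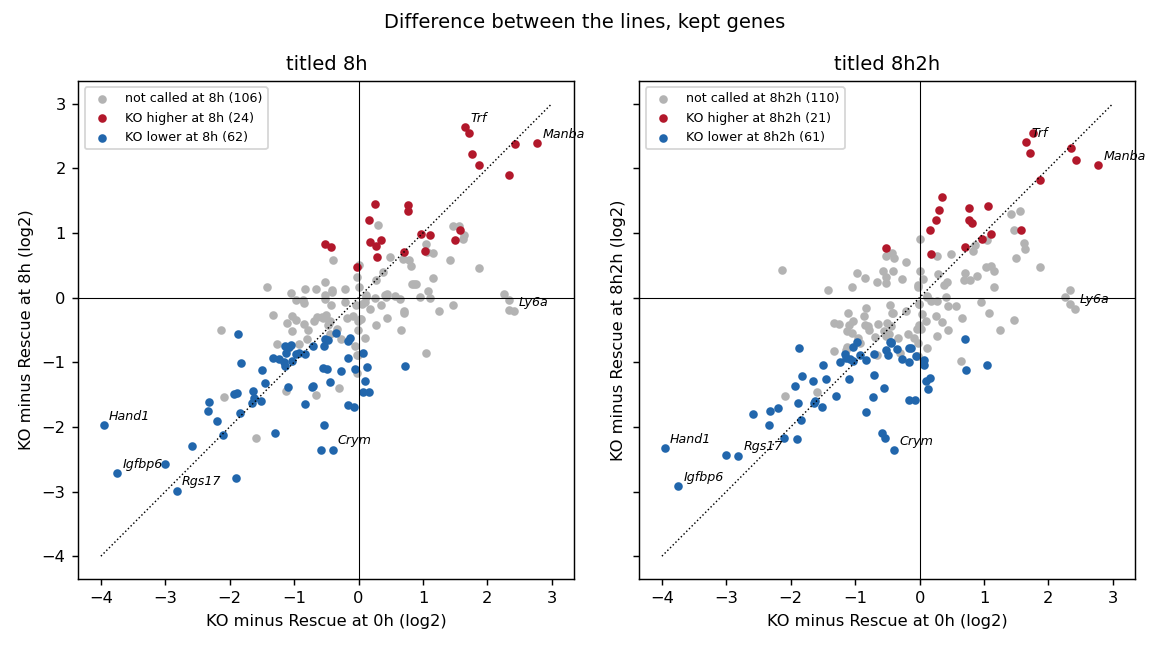
KO minus Rescue for the 192 genes (log2), at 0h across and at 8h (left) or 8h2h (right) up. Red and blue points passed limma's test as higher or lower in KO at the title on the vertical axis, grey points did not, and the dotted line marks equal differences. Igfbp6, Rgs17 and Hand1 lie low at both titles, Manba and Trf high, and Ly6a lies far right at a height near 0.

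The functional groups, which were made after the list was seen, are set here beside shares of all genes of 5.9%, 7.74% and 7.41% higher and 10.5%, 11.6% and 12.6% lower in KO at 0h, 8h and 8h2h. None of the 8 matrix and protease genes was higher in KO at any title, and 3, 6 and 6 were lower at 0h, 8h and 8h2h. None of the 6 annexin, S100 and galectin genes was higher, and 3, 3 and 4 were lower. Anxa1 was lower (-1.65 ± 0.19, -1.45 ± 0.19 and -1.63 ± 0.19), while S100a10 did not pass at any title (-0.01 ± 0.20 (adjusted p = 0.985) at 8h). Of the 17 secreted signals and carriers, 7, 5 and 4 were higher and 3, 3 and 4 lower. Of the 19 blood and immune genes, 6, 2 and 1 were higher and 2, 3 and 4 lower. Receptor, adhesion and junction genes were lower in 7, 8 and 6 of 19 and higher in 0, 2 and 2, with Ppl (-1.56 ± 0.20 at 8h) and Cldn3 (-0.88 ± 0.16) among the lower. Signalling genes were lower in 8, 7 and 5 of 17 and higher in 1, 2 and 2, and transcription factors lower in 5, 6 and 5 of 12 and higher in 3, 2 and 2. Cytoskeleton, lamina and caveolae genes were lower in 2, 4 and 5 of 16 and higher in 3, 1 and 0, and transport and metabolism genes lower in 5, 7 and 7 of 21 and higher in 1, 2 and 2.
Other genes of the lists that hold some of these members were counted at 8h, beside the same 7.74% higher and 11.6% lower over all genes. These lists, too, were chosen with earlier results of these data known. Of 37 further proteases, inhibitors and matrix genes tested, 3 were higher and 18 lower in KO. Of 44 further actin cytoskeleton and SRF target genes, 0 were higher and 22 lower, and of 47 further epithelial, junction and integrin genes, 4 were higher and 16 lower. Of 48 further secreted ligands and cytokines, 5 were higher and 18 lower, whereas Tgfb1, the member in that list, was higher in KO at 0h. At 8h Tgfb1 was higher by 0.68, which passed only on 17 arrays (limma, adjusted p = 0.0324). Of 67 further signalling regulators, 5 were higher and 23 lower, of 66 transcription factors 10 and 22, and of 42 transport and metabolism genes 6 and 11.

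Genes listed as fast Erk outputs, 30 in all, are set beside the kept genes. The rule bars 12 of the 30 by their symbols, among them Etv4, which met both limits, so their absence from the 192 was fixed by the choice. None of the other 18 met the rule. Between 8h and 0h, 23 rose and 2 fell in KO (median 1.69), and 25 rose and 3 fell in Rescue (median 1.94), where 22.5% of all genes passed in KO (11% higher and 11.5% lower) and 25.7% in Rescue (12% and 13.7%). Between 8h2h and 8h, 0 rose and 21 fell in KO (median -1.53), where 6.15% of all genes passed (3.2% higher and 2.96% lower), and 0 rose and 20 fell in Rescue (median -1.54), where 2.34% passed (1.14% and 1.2%).
Dusp6, an Erk phosphatase, averaged 2.92 ± 0.03, 5.18 ± 0.05 and 0.70 ± 0.03 at 0h, 8h and 8h2h in KO, and 3.28 ± 0.65, 5.26 ± 0.09 and 1.01 ± 0.25 in Rescue (SD, n = 3). It fell by 4.48 ± 0.23 in KO and by 4.25 ± 0.23 in Rescue at 8h2h (SE, limma, adjusted p = 2.98e-08 and 6.99e-08). Egr1, an immediate early factor, averaged 2.13 ± 0.08, 4.75 ± 0.07 and -0.20 ± 0.14 in KO and 0.55 ± 0.40, 5.18 ± 0.02 and 1.15 ± 0.10 in Rescue.
Dusp6 thus ended below its 0h mean in both lines, and Egr1 in KO only. Spry4, a Ras pathway inhibitor, fell by 5.31 ± 0.34 in KO, with 1 of 3 8h2h arrays well above background, and by 4.98 ± 0.34 in Rescue. Myc fell by 4.33 ± 0.13 in KO and 3.66 ± 0.13 in Rescue, Fosl1, an AP-1 subunit, by 2.79 ± 0.46 and 2.56 ± 0.46, and Ier3, an early response gene, by 1.32 ± 0.19 and 1.09 ± 0.19 (SE, adjusted p at most 0.00706). By the titles the lower levels of these genes were read after the inhibitor, and by the source names before it. With the groups taken from the source names, the rule gave 157 genes, 145 of them among the 192.

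Markers of other cell types were set beside the genes. Of 14 trophoblast markers read (of 16 listed), 10 were lower and 0 higher in KO at 0h, and 9 lower and 1 higher at 8h, and their summed linear level was 141 to 236 in KO and 489 to 528 in Rescue at 0h, and 230 to 267 in KO and 586 to 628 in Rescue at 8h. Hand1 is the only one of them among the 192. The rule bars the listed keratins (Krt7, Krt8, Krt18 and Krt19) by their symbols, so their absence was fixed by the choice. Of 14 primitive endoderm markers (of 15), which include Afp, 6 were lower and 1 higher in KO at 0h, with sums of 234 to 378 in KO and 247 to 292 in Rescue. Of 11 fibroblast markers read (of 14), which include Thy1, 1 was lower in KO at 0h. The sums were 4.9 to 5.98 in KO and 5.04 to 5.53 in Rescue at 0h, against 23.7 to 33.1 in KO and 11.3 to 13.2 in Rescue at 8h. Gene by gene, 1 of the 11 was called higher and 3 lower at 8h against 0h in KO (median -0.40). In Rescue 2 were higher and 2 lower (median -0.02). Between the lines at 8h, 1 was higher and 1 lower in KO. The sums thus do not stand for most of the list, and Thy1 was chosen for its rise. Embryonic stem cell markers, 12 of 12 read, summed to 1170 to 1240 in KO and 1020 to 1190 in Rescue at 0h, and to 1010 to 1150 in KO and 852 to 869 in Rescue at 8h, so they were present in every group. Of the 12, 7, 4 and 5 were higher and 0 lower in KO at 0h, 8h and 8h2h. The part of these cell types in the differences was not tested.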

How the data were processed

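The genes, functional groups and gene lists were chosen with earlier results of these data known. Column-purified, DNase-treated RNA was amplified and 100 ng of it labelled, per the labels' protocols, which name Cy5, whereas the file headers describe 1 scan channel. Per the file headers, the authors extracted spots with Agilent Feature Extraction 12.0.1.1, and the deposited processed signal is an intensity after background subtraction with no scaling between arrays. The deposited value table held the same intensity on each of the 18 arrays. The deposited flags for spots well above background, saturated or outlying (other values) were also used, and outlying spots were left out. No spot was saturated. Probes were named through RefSeq transcripts (32994 of 56605 probes, 22911 symbols). A probe entered the tests if some group had it well above background on each of its 3 arrays (34197 probes, 23318 named), and each gene's brightest probe was used, giving 16069 genes.

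Levels were log2 of the processed signal minus each array's 75th percentile. Differences between groups were tested with limma 3.58.1 (R 4.3.3; 6 group means, 18 arrays, lmFit and eBayes, two-sided, Benjamini-Hochberg over 16069 genes) and checked on simulated data. A bound for a group not above background used the lowest signal above background on each array. The number of arrays limits the precision. The position on the slide cannot be told apart from the group, since each group kept its position on all 3 slides. Arrays of 1 slide were not treated as pairs: of 45 pairs, 28 had deviations that correlated above 0.1 (median 0.141). Genes named were the 12 with the largest mean 8h minus 0h, the 5 highest and 5 lowest differences between the lines at each title with 1 sign on all slides, those in the fixed lists, those nearest to the limits of the rule, 6 Erk output genes and Esrrb. Alternatives were other background corrections, scalings, probe filters, group labels and left-out arrays.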

Additional observations from a re-analysis of the deposited data

Results flagged for a closer look

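In Rgs17, the brake on G protein signalling named above, 8h2h minus 8h had opposite signs on the slides of KO and Rescue. The mean over 3 slides of 8h2h minus 8h was 0.30 in KO and -0.24 in Rescue, a difference of 0.54119 (log2). Rgs17 was picked out because all 3 KO slides were above 0 and all 3 Rescue slides below it. KO slide b, the high-background array, was only just above 0. The rule also bounds 8h2h minus 8h in each line, and the difference was not tested.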

How the results depend on the processing

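The number of genes that met the rule was 101 with normexp background correction (90 of them among the 192), 299 with no scaling between arrays (186 shared) and 112 with a limit of 0.3 on 8h2h minus 8h. Over the other alternatives it ran from 157 (groups by source name, 145 shared) to 194, with 168 when all 3 KO 8h2h arrays were used (154 shared), and from 171 to 190 without 1 slide. Calls between KO and Rescue at 0h were 55 with normexp and 48 with no scaling, and with no scaling 46 at 8h and 41 at 8h2h. Without scaling, the median of all genes shifts by 0.12, 0.12 and 0.21 between the lines at 0h, 8h and 8h2h. Leaving out an array of the groups compared gave 67 to 87 calls at 0h, 61 to 72 at 8h and 71 to 91 at 8h2h. With the slide as a replicate block there were 92, 92 and 95 calls, and 21 and 20 Erk outputs fell in KO and Rescue, no change of more than 1.5 times. Of 450 recomputed values of the 30 largest differences between the lines, 441 kept direction and call, 9 lost the call and 0 reversed. The size held less well: with normexp 12 of the 30 were smaller by more than 1.5 times, with the mean of a gene's probes 4 and with quantile normalization 1, and under the other settings 0. Beside those given above, calls were lost for Bcl2l15 at 0h with the mean of its probes (-0.99), Rgs17 at 0h with only the arrays compared, and Rgs17 and Hand1 at 8h2h with no scaling (-2.19 and -2.08). The causes were not tested. Genes near background at 0h carry only bounds.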
